A study of Mus musculus with 16 samples.

Results

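The 9 genes described here, Ltf, Camp, Ngp, Lcn2, Olfm4, Fcnb, Mmp8, Mmp9 and Retnlg, encode proteins stored in the secondary and tertiary granules of neutrophils or are grouped with them. They were taken by symbol from the 32286 genes counted in each cell, and each of the 9 symbols matched 1 Ensembl identifier. They were followed in 24951 neutrophils among 31191 CD45+Ter119- bone marrow (BM) cells, in 4653 progenitors among 28155 lineage-negative c-Kit+ BM cells, a class named neutrophil-committed as a whole that also held clusters of 1065 and 156 cells whose markers went against that name, and in 1576 neutrophils among 13830 tumor cells, all measured by droplet single-cell RNA-seq with unique molecular identifiers (UMIs). BM came from non-tumor-bearing BALB/c WT mice, labelled as controls, from mice bearing the 2208L tumor and given vehicle, and from 2208L-bearing mice given IACS-70654, with 2 libraries per group and sort. The 4 tumor libraries each held 2208L tumors under 1 treatment, which was vehicle, IACS-70654, anti-PD1 antibody or the combination. The sample title does not list the parts of the combination, which is taken here to hold IACS-70654 and anti-PD1. The paper's combination of these also held docetaxel, so this tumor may differ from the anti-PD1 one by more than IACS-70654. The 2208L line is a transplanted Trp53-null mouse mammary tumor used as a model of neutrophil-rich triple-negative breast cancer, and IACS-70654 is a small molecule that blocks the bromodomains of the acetyltransferases CBP and P300. IACS-70654 and vehicle were given by mouth, 3 days on and 2 days off, and anti-PD1 by intraperitoneal injection. By the paper, CD45+ BM was taken after 6 days with 5 doses, c-Kit+ BM after 6 days, and the vehicle and IACS-70654 tumors after 7 days. The sample records list 7 days for every treated group, the anti-PD1 and combination tumors included. The WT mice were untreated, and cells of 3 mice were pooled per sample. Whether both libraries of a BM group came from 1 pool was not stated outright, so p-values measure only the spread between libraries, which may be technical.

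Neutrophils fill their granules in a fixed order as they mature in BM. Azurophil (primary) granules, with myeloperoxidase and serine proteases, are made by dividing promyelocytes. Secondary (specific) granules follow in myelocytes and metamyelocytes, and tertiary (gelatinase) granules in band cells. Each granule protein is sorted largely by when its gene is transcribed, so granule transcripts mark steps of maturation, and C/EBPε is the transcription factor best known to be needed for secondary granules. Among the members, Ltf encodes the iron-binding protein lactoferrin, Camp the cathelicidin antimicrobial peptide, Lcn2 the siderophore-binding lipocalin-2 and Ngp neutrophilic granule protein, a cystatin-like protein. Fcnb encodes ficolin B, a lectin that starts complement, and Olfm4 olfactomedin 4, a matrix glycoprotein held by a subset of neutrophils. Mmp8 and Mmp9 encode neutrophil collagenase and gelatinase B, and Retnlg encodes the secreted protein resistin-like gamma.

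In the GRCm38 annotation, Camp (chromosome 9, 109847379 to 109849617, minus strand), Ngp (chromosome 9, 110419747 to 110423012, plus strand) and Ltf (chromosome 9, 111019271 to 111042767, plus strand) lay within 1.2 Mb of each other. Mmp8 lay elsewhere on chromosome 9 (7558456 to 7568485, plus strand). Chromosome 2 held Fcnb (28076378 to 28084885, minus strand), Lcn2 (32384633 to 32388252, minus strand) and Mmp9 (164940780 to 164955850, plus strand). Retnlg was on chromosome 16 (48872621 to 48874496, plus strand). Olfm4 (chromosome 14, 79984081 to 80023139, plus strand) overlapped the lincRNA gene Gm6999 on the same strand, so reads could not be split between them with certainty. The RefSeq promoter table (GRCm38.p6) held 8 of the 9 members, Mmp9 excepted. The letters TTGCNNAA, a core match for C/EBP factors, searched on both strands, stood within 250 bases before the start of 6 of the 8 (Fcnb, Lcn2, Mmp8, Ngp, Ltf and Retnlg), against 9.564% of all 32851 promoters. GAGGAAGT, a core for PU.1, stood in 2 of 8 (Mmp8 and Olfm4), against 2.441%, and TATAAA, searched on the gene's strand, in 0 of 8, against 7.592%. A match is a run of letters and not a measured binding site. The stretches below are shown because these 4 genes stand for the early (Fcnb), middle (Ngp, Ltf) and late (Mmp8) members described next, with the C/EBP match in capitals and the 5′ to 3′ direction that of the gene.
Fcnb, chr2:28084941-28085078, minus strand: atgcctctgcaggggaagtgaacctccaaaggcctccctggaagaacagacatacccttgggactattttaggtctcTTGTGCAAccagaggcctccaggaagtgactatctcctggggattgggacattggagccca
Ngp, chr9:110419608-110419745, plus strand: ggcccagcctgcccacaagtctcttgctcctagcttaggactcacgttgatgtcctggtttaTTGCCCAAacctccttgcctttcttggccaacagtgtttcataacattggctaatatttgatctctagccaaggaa
Ltf, chr9:111019092-111019229, plus strand: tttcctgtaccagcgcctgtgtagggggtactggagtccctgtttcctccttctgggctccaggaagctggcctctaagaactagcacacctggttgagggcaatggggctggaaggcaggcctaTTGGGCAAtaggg
Mmp8, chr9:7558291-7558428, plus strand: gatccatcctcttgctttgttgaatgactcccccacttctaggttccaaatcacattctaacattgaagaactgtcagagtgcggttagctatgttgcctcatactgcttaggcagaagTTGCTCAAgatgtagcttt
The matches shown began 123 bases before the start of Fcnb, 138 before Ngp, 75 before Ltf and 19 before Mmp8.

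The 16 libraries, each the cells of 1 sample, held 15590289 to 68415534 UMIs, with medians of 4113 to 9512 UMIs per cell kept. Libraries of 1 sort had 0 barcodes in common, against 0 to 17 for libraries of different sorts. The paper tagged cells with CellPlex oligos and split the samples computationally. Whether the libraries of a sort shared 1 droplet run, and with it free RNA, was not stated. Marrow neutrophils fell into 5 stages named from markers that did not include the members, which were also barred from the clustering: azurophil-high (Mpo, Elane, Prtn3, Ctsg), cycling, immature non-cycling, mature and Il1b-rich. The immature stage also held a cluster of 546 cells led by Ccnb2 and Cdkn3, genes of cell division (z = 0.09 for cycling and 0.39 for immature markers). The name non-cycling thus does not cover all of that stage. A cluster of 210 cells led by Cd74 was left unnamed. Levels are UMIs per 1000000 UMIs of the stage in that library (CPM) and are given in the order WT replicates 1 and 2, vehicle 1 and 2, IACS-70654 1 and 2. Azurophil-high cells numbered 131, 155, 172, 186, 332 and 438, cycling cells 431, 390, 512, 664, 398 and 515, and each of the immature and mature stages held over 1000 cells in every library. UMIs of the members were also found in cells that should lack them. In B cells of the CD45+ libraries the members took 0.448% to 0.908% of UMIs, with Camp at 1677 to 3743 CPM, Ngp at 1134 to 1954 CPM, Ltf at 212 to 715 CPM, Lcn2 at 630 to 1424 CPM, Retnlg at 472 to 1328 CPM and Fcnb at 14.2 to 54.7 CPM. Mmp8, Mmp9 and Olfm4 did not pass 142 CPM there. These ranges rest on few cells in the tumor-bearing libraries, with 410, 423, 81, 90, 33 and 74 B cells, and the highest Olfm4 value among B cells, 106 CPM, rests on 16 UMIs in 9.09% of 33 cells. T and NK cells should lack the members too, and there they took 1.08%, 0.529%, 2.69%, 1.83%, 0.563% and 0.884% of UMIs. That class held 121, 81, 22, 21, 30 and 33 cells. B cells are thus not the highest background found, above all in the vehicle libraries. These B cells held a median of 3099 to 3610 UMIs and azurophil-high cells 12848.5 to 17992, so at an equal CPM an azurophil-high cell held more UMIs of a member: the mean count of Camp was 7.67 to 15.7 UMIs per B cell and 32.5 to 212 per azurophil-high cell. In mature and Il1b-rich cells (medians of 1583 to 4121.5 UMIs) levels at or under those of B cells are read below as background. In the deeper young stages they are given beside the B-cell CPM, and the part of free RNA in them was not tested.

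The members peaked in an order along the stages, which is given as a description since the stages were cut from the same cells. Fcnb was the earliest. Its level in azurophil-high cells was 1411, 1263, 1110, 1084, 206 and 203 CPM, in cycling cells 903, 992, 883, 794, 424 and 437 CPM, and in immature cells 109 to 167 CPM, with mature cells at 7.5 to 14.1 CPM. In WT and vehicle the azurophil-high values all lay above the cycling ones, and in IACS-70654 they lay below them. By cluster, the cycling one led by Hells and Mcm6 held 1222 to 1477 CPM of Fcnb in WT and vehicle. This was above the azurophil-high cluster led by Ctsg and Mpo (752 to 1112 CPM) and below the other azurophil-high cluster (1507 to 2071 CPM). As sums over whole stages, Camp and Ngp peaked together in cycling cells. The immature sum mixes unlike clusters, the late one of 3382 cells holding means of 9517 CPM of Camp and 12953 CPM of Ngp. The order is thus that of the sums and may not hold for each cluster. Camp stood at 56841, 58030, 49747, 50372, 37452 and 37528 CPM in cycling cells, against 29080 to 35975 CPM in immature cells and 1847 to 15208 CPM in azurophil-high cells. Ngp stood at 35398, 34576, 32611, 33532, 18665 and 18711 CPM in cycling cells and at 24359 to 30079 CPM in immature cells. With IACS-70654 the order of these stages was the reverse for Ngp, at 24388 and 24359 CPM in immature cells. In mature cells Camp (1382 to 2163 CPM) was at the level of B cells, whereas Ngp (1789 to 3708 CPM) reached above it in all but 1 vehicle library.

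Ltf, Lcn2 and Olfm4 had their highest level in immature non-cycling cells. Ltf reached 9608, 9437, 8249, 8333, 8404 and 8689 CPM there, against 3211 to 6705 CPM in cycling cells and 159 to 538 CPM, within or under the range of B cells, in azurophil-high cells. Lcn2 reached 13329, 13399, 14777, 14566, 16586 and 16916 CPM in immature cells and was still at 4144 to 6142 CPM in mature cells. Olfm4 stood at 816, 760, 581, 614, 445 and 511 CPM in immature cells and was found in few of them: after each cell was thinned to 1000 UMIs, a mean of 19.9% of immature cells held an Olfm4 UMI, against 99.7% for Lcn2 and 89.97% for Ltf. Without thinning, the highest share of cells with Ltf or Olfm4 was in the deeper cycling cells. For Fcnb it was in cycling cells too (a mean of 90.7%, against 84.5% of azurophil-high cells), and after thinning the shares were 42.1% and 44.0%. As sums over whole stages, the late members Mmp8, Mmp9 and Retnlg were highest in mature cells. Over the azurophil-high and cycling stages as a whole they were no higher in CPM than in B cells. The largest mature cluster, of 4186 cells, held a mean of 1191 CPM of Mmp8, against 1296 CPM over the immature stage. The order of the sums may thus not hold for each cluster. In 1 cycling cluster of 61 to 137 cells per library they were above most of the B-cell values, with Retnlg at 1476 to 2733 CPM, Mmp9 at 133 to 309 CPM and Mmp8 at 102 to 167 CPM. Retnlg went from 411 to 895 CPM in azurophil-high and cycling cells to 10915 to 14568 CPM in immature and 27200 to 34734 CPM in mature cells. Mmp8 went from 27.9 to 62 CPM to 1104 to 1613 CPM and 1453 to 2096 CPM over the same stages, and Mmp9 from 33.4 to 107 CPM to 998 to 1266 CPM and 1411 to 1647 CPM. Il1b-rich cells kept Mmp9 at 839 to 997 CPM, while their Camp, Ngp, Ltf and Lcn2 were no higher than in B cells. This stage was not sharply set off from the mature one. By the score of each cell, 697 of its 1460 cells scored highest for Il1b-rich markers and 721 for mature ones. In the mature stage 2162 cells scored highest for Il1b-rich markers.

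**Figure D1:**
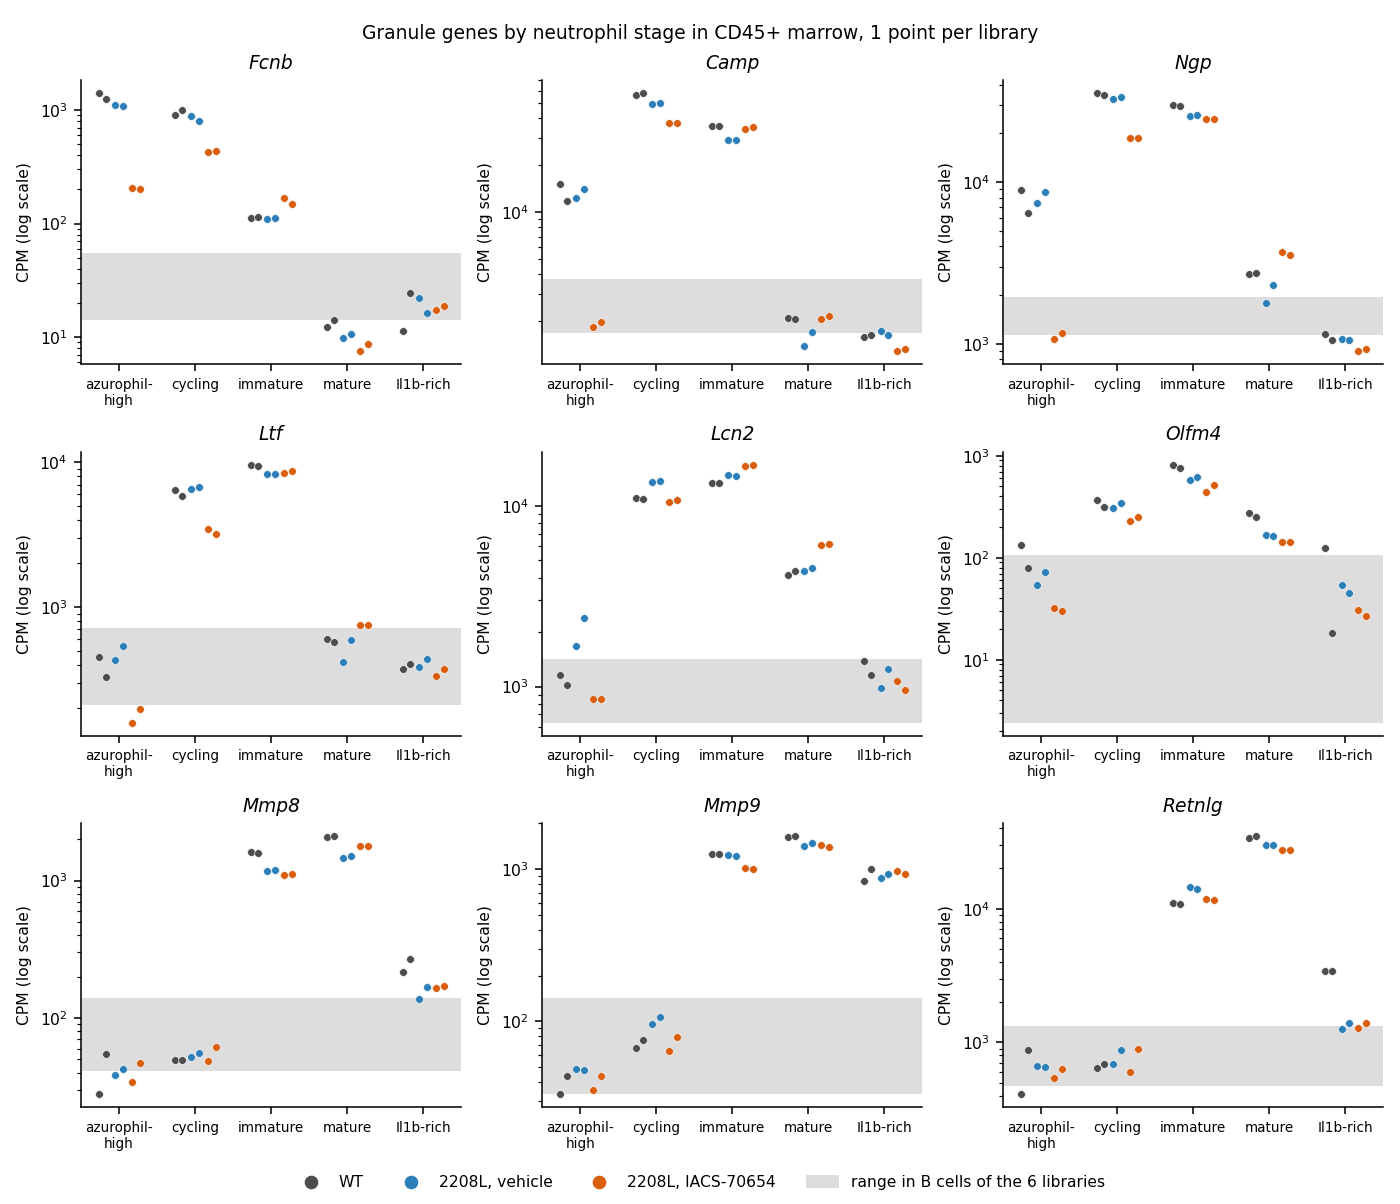
Level of each gene (CPM, log scale) in the 5 neutrophil stages of CD45+ BM, 1 point per library, with the 2 libraries of each group side by side, and the range in B cells of the 6 libraries as a grey band. In WT and vehicle Fcnb is highest in azurophil-high cells, Camp and Ngp in cycling cells, Ltf, Lcn2 and Olfm4 in immature cells, and Mmp8, Mmp9 and Retnlg in mature cells, and the IACS-70654 points for Camp and Ngp in azurophil-high cells (1847 and 1973 CPM; 1069 and 1163 CPM) sit in or below the band.

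Over the 30 sums of stage and library, Pearson's r of log2(CPM + 1) was 0.97 for Camp with Ngp, 0.98 for Mmp8 with Retnlg, 0.93 for Ltf with Lcn2 and -0.85 for Fcnb with Mmp9, all as descriptions, since the sums share libraries and stages. Among 2854 non-member genes, the closest in pattern were Cpne3 for Ltf (r = 0.97), Scp2 for Camp (0.96), Cybb for Ngp (0.96), Cd177 for Lcn2 (0.99), Adpgk for Olfm4 (0.97), 1810037I17Rik for Fcnb (0.96), Timp2 for Mmp8 (0.96) and Retnlg (0.96), and Pira2 for Mmp9 (0.98). Cd177, Adpgk and other stage markers helped to define the stages, so their likeness is partly built in.

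The first comparison set vehicle-treated tumor-bearing mice against untreated WT mice. UMIs were summed per library and stage and tested with edgeR over all genes, and a call needed a log2 change of more than 0.5 together with an adjusted p below 0.01. Log2 changes are relative to the bulk of genes in the stage (TMM scaling) and can differ from the ratio of CPM: scaled to totals only, the median change of all genes was 0.04 to 0.28 for IACS-70654 against vehicle and -0.28 to 0.11 for vehicle against WT. Of 45 tests of the 9 members in 5 stages, vehicle against WT gave 6 calls, 3 higher and 3 lower, in 4 members (Lcn2, Olfm4, Mmp9 and Retnlg). In all, 20 of the 45 tests had an adjusted p under 0.01, most with changes under the limit of a call, and stages from the score of each cell gave 10 calls. Shares of all genes for that cut and those stages are not given, so these counts are not read as a result about the members. In azurophil-high cells 1 member was called higher and 1 lower, against 1.23% and 0.891% of all genes tested. Lcn2 was at 1158 and 1020 CPM in WT and 1673 and 2392 CPM in vehicle, a log2 change of 0.95 ± 0.079 (SE; n = 2 libraries per group; edgeR adjusted p = 5.4e-12). Both vehicle libraries lay above both WT libraries, and WT lay within the B-cell range of CPM. Olfm4 was lower, with a log2 change of -0.69 ± 0.15 (edgeR adjusted p = 0.0013), from 135 and 79.6 CPM to 53.5 and 72.0 CPM, and the call was lost without WT replicate 1 (-0.29) and without vehicle replicate 1 (-0.51). B cells of the same 4 libraries were at 29.4, 21.1, 2.41 and 54.7 CPM of Olfm4, each under its azurophil-high cells.

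In cycling cells, vehicle against WT called 1 member higher and 0 lower (2.01% and 1.08% of all genes). Mmp9 had 67.0 and 75.6 CPM in WT and 96.6 and 107 CPM in vehicle (log2 change 0.67 ± 0.087, edgeR adjusted p = 1e-06), all within the B-cell range of 33.1 to 142 CPM. These sums moved mostly with 1 of the 4 cycling clusters, of 61 to 137 cells per library, where Mmp9 was at 156 and 180 CPM in WT and 309 and 260 CPM in vehicle. In another it was lower in vehicle, at 43.8 and 46.8 CPM in WT and 20.7 and 31.5 CPM in vehicle. In the remaining clusters it was higher in vehicle, at 49.5 and 54.4 CPM against 64.0 and 66.8 CPM, and at 44.5 and 42.3 CPM against 44.9 and 69.8 CPM. In immature cells it again called 1 higher and 0 lower (4.42% and 3.74%). Retnlg went from 10951 and 10915 CPM to 14568 and 13942 CPM, a log2 change of 0.64 ± 0.018 (edgeR adjusted p = 1.3e-134). Scaled to totals the change was 0.38, under the limit of a call. In mature cells 0 members were called higher and 1 lower (4.83% and 3.86%): Olfm4 fell from 273 and 248 CPM to 168 and 165 CPM, a log2 change of -0.57 ± 0.053 (edgeR adjusted p = 9.2e-14), with no overlap of the libraries. In Il1b-rich cells 0 were called higher and 1 lower (0.803% and 1.97%). Retnlg was at 3402 and 3411 CPM in WT and at 1260 and 1410 CPM in vehicle, where B cells held 1259 and 1328 CPM, a log2 change of -1.44 ± 0.077 (edgeR adjusted p = 2.5e-22). When stages were set by the highest score of each cell, this change was -0.19. Over all neutrophils together, vehicle against WT called 0 members higher and 0 lower, against 5.22% and 4.59% of 14021 genes, although 8 of 9 had an unadjusted p under 0.05 and 5 an adjusted p under 0.01 with smaller changes, and DESeq2 called 0 as well. The largest of these was Lcn2, at 0.46 ± 0.025. For the cuts on p alone the shares of all genes are not given, so those counts are not read as a result about the members.

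IACS-70654 against vehicle gave 17 calls in the same 45 tests, 16 lower and 1 higher. In azurophil-high cells 6 of 9 members were lower and 0 higher, against 6.03% and 3.18% of 9988 genes. Camp was at 12274 and 14023 CPM in vehicle and 1847 and 1973 CPM in IACS-70654, a log2 change of -2.89 ± 0.069 (edgeR adjusted p = 1.7e-32). The IACS-70654 libraries were far below the vehicle and WT (15208 and 11844 CPM) libraries and lay within the CPM range of their own B cells (1677 and 3743 CPM), while per cell they held a mean of 32.5 and 34.9 Camp UMIs against 7.67 and 15.7 in those B cells and 171 and 197 in vehicle azurophil-high cells. After thinning to 1000 UMIs per cell, 73.3% and 73.5% of azurophil-high cells held a Camp UMI in vehicle and 45.2% and 48.4% in IACS-70654, against 60.6% and 67.6% of B cells in those drug libraries. Ngp behaved likewise, from 7394 and 8720 CPM to 1069 and 1163 CPM (-2.96 ± 0.082, edgeR adjusted p = 2.9e-30). Fcnb fell from 1110 and 1084 CPM to 206 and 203 CPM (-2.53 ± 0.063, edgeR adjusted p = 5.8e-32), and it stayed above its level in B cells of those libraries (53.0 and 16.1 CPM). No library of the drug group overlapped the vehicle group for these genes.

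Lcn2 in azurophil-high cells went from 1673 and 2392 CPM to 851 and 854 CPM, a log2 change of -1.36 ± 0.077 (edgeR adjusted p = 1.6e-18), the drug libraries being within the CPM range of B cells. Ltf was at 432 and 538 CPM and at 159 and 196 CPM (-1.55 ± 0.090, edgeR adjusted p = 3.8e-18), and Olfm4 at 53.5 and 72.0 CPM and at 32.3 and 30.2 CPM (-1.12 ± 0.15, edgeR adjusted p = 1.5e-07). B cells of the same libraries held Ltf at 311 and 715 CPM in vehicle and 212 and 452 CPM in IACS-70654, and Olfm4 at 2.41 and 54.7 CPM and 106 and 25.8 CPM. Per cell the azurophil-high stage held more than B cells in each of these 4 libraries, with a mean of 6.01 and 7.56 Ltf UMIs in vehicle and 2.80 and 3.48 in IACS-70654, against 1.59 and 3.92 and 0.970 and 1.89 in B cells. The part of free RNA in these calls was not tested. Mmp8, Mmp9 and Retnlg, no higher in CPM than in B cells, were not called, with log2 changes of -0.08, -0.37 and -0.28. Together the members took 2.37% and 2.76% of the UMIs of azurophil-high cells in vehicle, 2.78% and 2.19% in WT, then 0.478% and 0.515% in IACS-70654. B cells held 0.656% and 0.697% in the vehicle libraries and 0.448% and 0.908% in the IACS-70654 libraries, with Camp at 2135 and 1709 CPM in the vehicle ones. T and NK cells, few in number, held 2.69% and 1.83% in the vehicle libraries and 0.563% and 0.884% in the IACS-70654 libraries.

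The azurophil-high stage held 2 clusters, and the change was present in both. In the first, led by Ctsg, Mpo and Prtn3, Camp was at 7397 and 8431 CPM in vehicle and 1176 and 1686 CPM in IACS-70654, and Fcnb at 823 and 752 CPM and 198 and 168 CPM. In the other, which also scored for cycling genes, Camp was at 21621 and 23128 CPM and 2681 and 2314 CPM, and Fcnb at 1662 and 1624 CPM and 215 and 245 CPM. Thinned to 1000 UMIs per cell, 40.7% and 37.8% of azurophil-high cells in vehicle held at least 10 Camp UMIs, and 5.42% and 6.62% in IACS-70654. The 90th percentile cell held 33.8 and 42.2 Camp UMIs in vehicle and 4 and 7 with the drug. Cells with many Camp UMIs were thus a smaller share of the stage with the drug. Camp, Ngp and Fcnb kept their calls in these cells under every alternative tried, whereas Lcn2 and Olfm4 lost theirs when stages were set by the score of each cell (-0.20 and -0.47) and turned to 0.07 and 0.18 with clusters made without integration, where Ltf lost its call as well (-0.46).

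**Figure D2:**
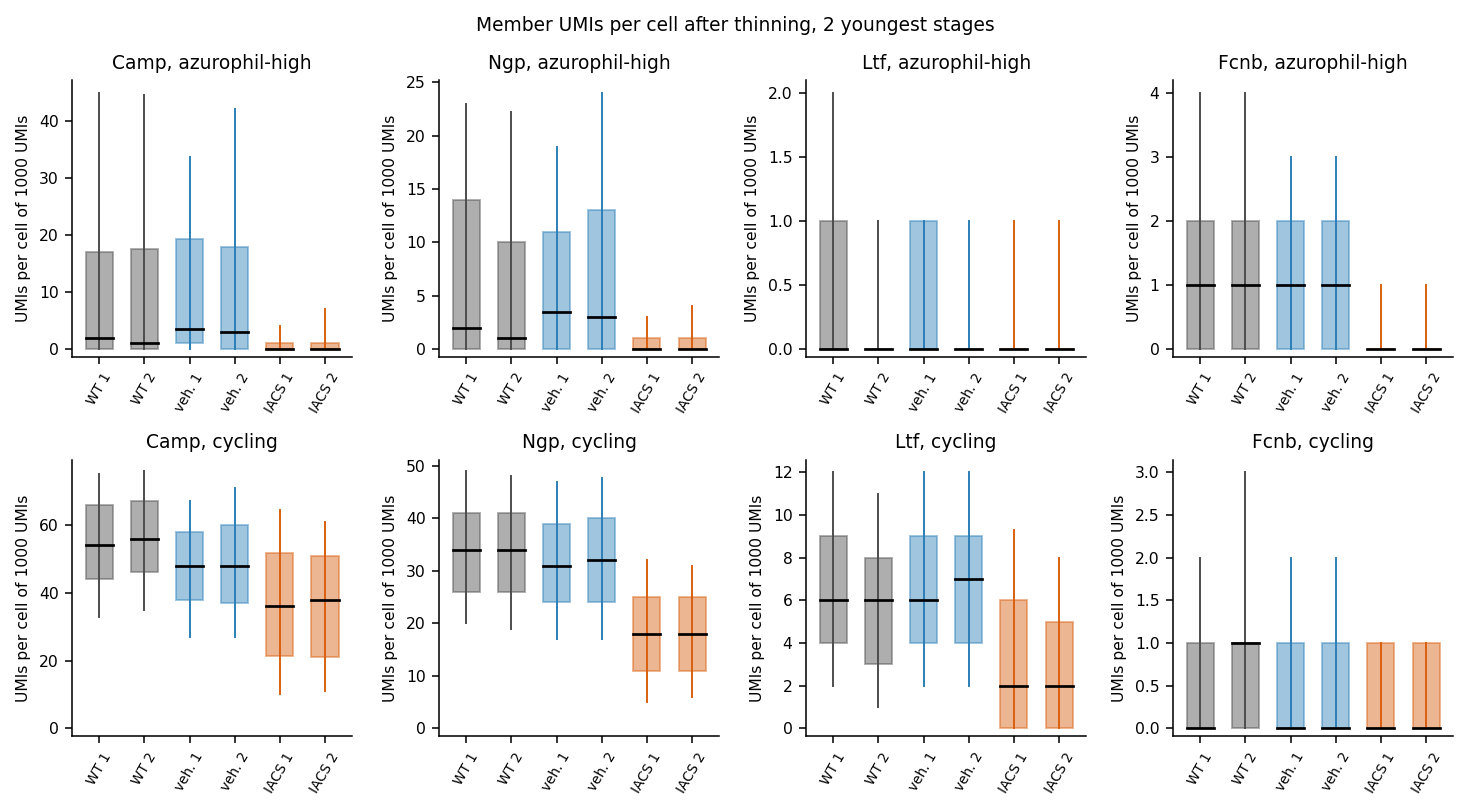
UMIs of Camp, Ngp, Ltf and Fcnb per cell after thinning each cell to 1000 UMIs, in azurophil-high (upper row) and cycling (lower row) cells of each library, with the median as a black line, the 25th to 75th percentiles as a box and the 10th to 90th as a line. For Camp in azurophil-high cells the upper end of the lines is at 33.8 and 42.2 UMIs in vehicle and at 4 and 7 in IACS-70654, and in cycling cells the Ltf median is 6 and 7 in vehicle and 2 in both drug libraries.

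In cycling cells 7 of 9 members were lower with IACS-70654 and 0 higher, against 5.1% and 6.73% of 10656 genes. Ltf and Fcnb fell most, by amounts that differed less than their SE. Ltf fell from 6541 and 6705 CPM to 3464 and 3211 CPM (log2 change -1.24 ± 0.051, edgeR adjusted p = 2.1e-19). Fcnb fell from 883 and 794 CPM to 424 and 437 CPM (-1.21 ± 0.060, edgeR adjusted p = 3e-17), and Ngp from 32611 and 33532 CPM to 18665 and 18711 CPM (-1.07 ± 0.045, edgeR adjusted p = 3.2e-19). All these values were well above B cells, and the drug libraries lay below every vehicle and WT library. Camp went from 49747 and 50372 CPM to 37452 and 37528 CPM (-0.67 ± 0.045), Lcn2 from 13532 and 13790 CPM to 10460 and 10782 CPM (-0.61 ± 0.047), Olfm4 from 307 and 340 CPM to 231 and 251 CPM (-0.68 ± 0.062) and Mmp9, in the CPM range of B cells, from 96.6 and 107 CPM to 63.6 and 79.0 CPM (-0.75 ± 0.081). The Mmp9 sums again moved mostly with the same cluster, at 309 and 260 CPM in vehicle and 133 and 168 CPM in IACS-70654, and in the other 3 cycling clusters the libraries of both groups overlapped. For Camp, Lcn2 and Olfm4 the change scaled to totals was -0.42, -0.36 and -0.43, under the limit of a call, and Camp and Lcn2 lost their calls under both other ways of setting the stages. Mmp8 (-0.20) and Retnlg (-0.31) were not called. Per thinned cell, the median Ltf count was 6 and 7 in vehicle against 2 and 2 in IACS-70654, that of Ngp 31 and 32 against 18 and 18, and that of Camp 48 and 48 against 36 and 38. The gap in Ltf was widest in the cycling cluster led by DNA replication genes (Hells, Mcm6, Lig1), with 5290 and 6296 CPM in vehicle and 1188 and 1448 CPM in IACS-70654. That cluster scored higher for azurophil markers (z = 0.83) than for cycling ones (z = 0.39). It held 99 of 512 and 113 of 664 cycling cells in vehicle, and 93 of 398 and 125 of 515 in IACS-70654.

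The change in azurophil-high cells was larger than that in cycling cells for some members, by a test of the difference added after the data were seen, which called 4 of 9 lower, against 2.05% of 11659 genes. The difference (azurophil-high minus cycling) was -2.21 ± 0.069 for Camp, -1.87 ± 0.075 for Ngp, -1.32 ± 0.077 for Fcnb and -0.72 ± 0.075 for Lcn2 (edgeR adjusted p = 4.5e-32, 2.5e-27, 4.9e-20 and 1e-10). For Ltf it was -0.30 (adjusted p = 0.025), not called, with its azurophil-high level within or under the CPM range of B cells.

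In immature cells the early members no longer stood apart. With IACS-70654, 3 of 9 members were lower and 0 higher, against 7.86% and 11.9% of 11356 genes. The 3 were Retnlg, from 14568 and 13942 CPM to 11814 and 11603 CPM (-0.54 ± 0.018, edgeR adjusted p = 3.2e-111), Mmp9, from 1240 and 1218 CPM to 1021 and 998 CPM (-0.54 ± 0.023), and Olfm4, from 581 and 614 CPM to 445 and 511 CPM (-0.57 ± 0.027). In each the drug libraries lay below the vehicle libraries, but scaled to totals the changes were -0.28, -0.28 and -0.32 and none was called, and Olfm4 was at -0.48 without IACS-70654 replicate 1. Retnlg and Mmp9 also lost their calls with stages from the score of each cell (-0.31 and -0.39) and with clusters made without integration, where Retnlg turned to 0.47 and Mmp9 was at -0.28. Camp, at 29080 and 29105 CPM in vehicle and 34085 and 35007 CPM in IACS-70654, had a log2 change of -0.01 ± 0.017 once scaled to the bulk of genes, and Ltf was at -0.21 and Ngp at -0.33. Fcnb, in its last traces at this stage, was at 109 and 113 CPM and 167 and 148 CPM (0.24 ± 0.042, not called). A split of the immature clusters was added after the data were seen. Of 9 members it called 1 higher and 0 lower in the later cluster, and 0 higher and 3 lower in the earlier ones. The shares of all genes called in these parts are not given, so the counts are not read as a result about the members. In the later cluster Camp was at 0.57 ± 0.033 (called) and Ltf at 0.45 ± 0.035 (not called). In the earlier clusters they were at -0.07 and -0.32.

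In mature cells 1 of 9 members was higher with IACS-70654 and 0 lower, a share near the 11.3% of 10302 genes higher there, with 10.0% lower. Ngp was at 1789 and 2313 CPM in vehicle and 3708 and 3543 CPM in IACS-70654, a log2 change of 0.61 ± 0.042 (edgeR adjusted p = 3.1e-19). Both drug libraries lay above the WT libraries too (2689 and 2755 CPM) and above their B cells (1134 and 1954 CPM). Without vehicle replicate 1, whose Ngp was the lower, the change was 0.44, under the limit of a call, with stages from the score of each cell it was 0.25, not called, and with clusters made without integration it was -0.30. Lcn2 was at 4386 and 4556 CPM and 6051 and 6142 CPM (0.24 ± 0.025), Ltf at 416 and 592 CPM and 753 and 757 CPM (0.36 ± 0.054) and Retnlg at 29876 and 30011 CPM and 27200 and 27225 CPM (-0.34 ± 0.020), none of them called. Mmp8 (0.07), Mmp9 (-0.24) and Olfm4 (-0.42) were not called either, and Fcnb was at background. Il1b-rich cells gave 0 calls for the members, against 2.71% higher and 4.42% lower of 5978 genes. There 5 members had an unadjusted p under 0.05 in edgeR and 1, Camp at -0.38, an adjusted p under 0.01, and DESeq2 called 0. The shares of all genes at these cuts on p alone are not given.

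**Figure D3:**
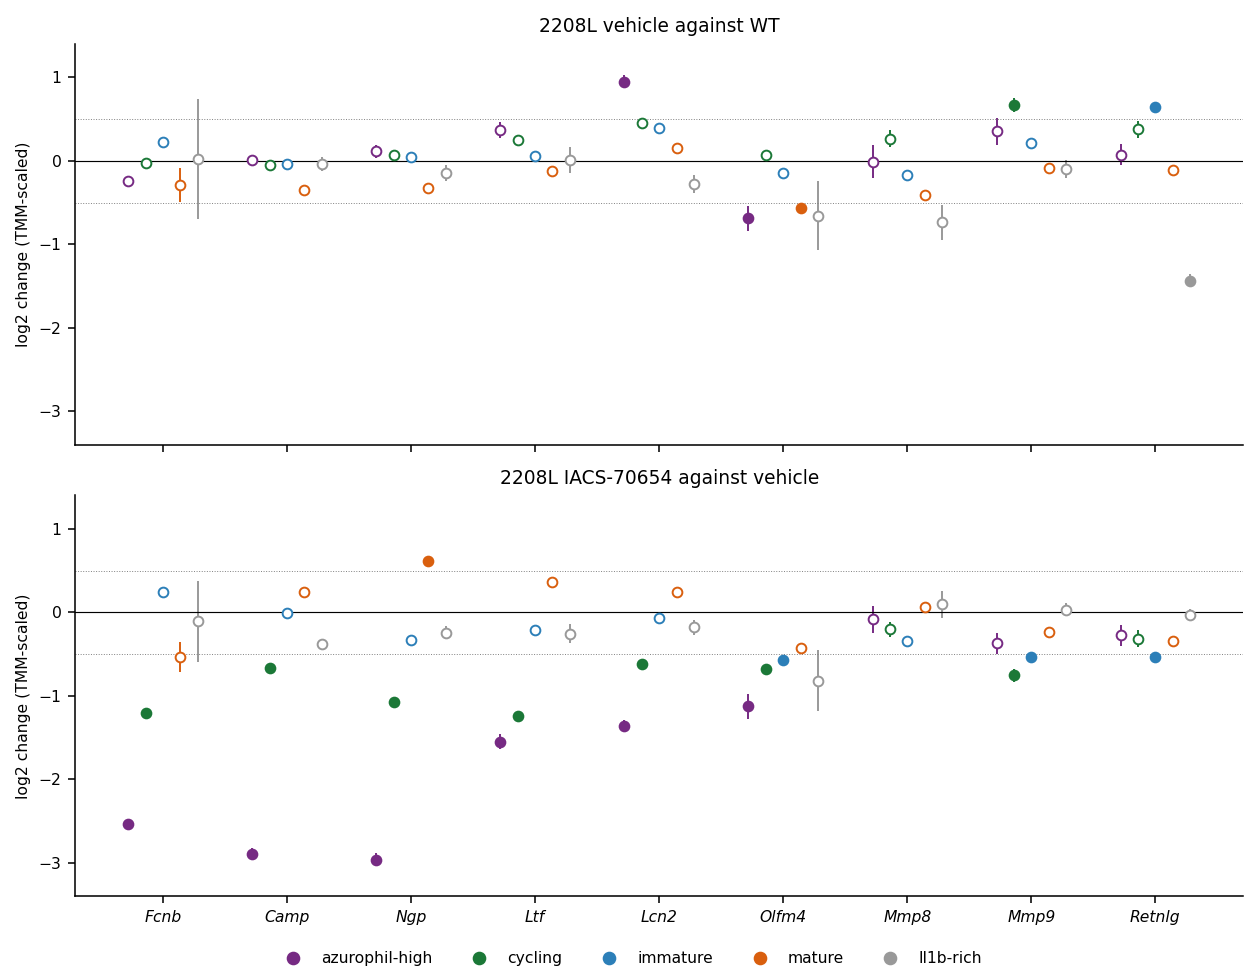
Log2 change of each gene (TMM-scaled, error bars 1 SE, 2 libraries per group) in each stage, for vehicle against WT (upper panel) and IACS-70654 against vehicle (lower panel), with filled symbols for called genes and dotted lines at the limit of 0.5. In the lower panel Camp, Ngp and Fcnb reach -2.89, -2.96 and -2.53 in azurophil-high cells and are within 0.5 of 0 in immature cells, and Ngp is at 0.61 in mature cells.

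Whether the effect differed between immature and mature cells was tested in 1 fit of both stages. For IACS-70654 against vehicle 2 members were called higher and 1 lower in mature than in immature cells, against 2.97% and 3.08% of 11199 genes: Ngp by 0.94 ± 0.034 (edgeR adjusted p = 4.5e-165), Ltf by 0.57 ± 0.039 (adjusted p = 4.6e-45) and Fcnb by -0.79 ± 0.19 (adjusted p = 0.0004). Ltf in mature cells was in or just above the CPM range of B cells, and its difference was 0.33 without vehicle replicate 1. The Fcnb difference rests on background counts in mature cells and was lost without IACS-70654 replicate 1 (-0.56) or vehicle replicate 2 (-0.72). For vehicle against WT 0 were called higher and 1 lower (1.21% and 1.88%), Retnlg at -0.75 ± 0.032 (adjusted p = 1.4e-113), which was higher in immature cells and not called in mature ones (-0.11).

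Summed over all marrow neutrophils, which needs no stages but moves with how many cells each stage holds, 7 of 9 members were lower with IACS-70654 and 0 higher, against 11.4% and 14.8% of 14021 genes. They were Fcnb (-1.22 ± 0.040), Ngp (-0.88 ± 0.027), Olfm4 (-0.84 ± 0.050), Ltf (-0.72 ± 0.033), Camp (-0.65 ± 0.023), Mmp9 (-0.59 ± 0.031) and Retnlg (-0.58 ± 0.024), with Lcn2 (-0.46) and Mmp8 (-0.34) under the limit. Scaled to totals, 3 of the 7 were called. The members took 8.56% and 8.28% of neutrophil UMIs in WT, 7.86% and 7.98% in vehicle, and with IACS-70654 6.12% and 6.15%. Azurophil-high cells were 3.84% and 3.45% of neutrophils in vehicle and 8.30% and 8.67% with IACS-70654. Cycling cells were 11.4% and 12.3% and then 9.95% and 10.2%, and immature cells 38.75% and 37.7% and then 36.1% and 35.96%. The part of this makeup in the summed changes was not tested.

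Other genes of the same granules were taken from a list of 29. Cd177, Itgb2l and Chil1 of that list were also markers of the immature stage, and the list was not barred from the clustering. Changes of these genes within stages thus partly depend on how the stages were set. In azurophil-high cells 14 of 26 tested were lower with IACS-70654 and 1 higher (6.03% and 3.18% of all genes), with a median change of -0.63, against 0.0094 for all genes. In cycling cells 12 of 28 were lower and 0 higher (5.1% and 6.73% of all genes), with a median of -0.43, against 0.0043. The largest in both stages were the chitinase Chit1 (-6.32 and -4.85), the acute phase protein Orm1 (-3.65 and -3.53) and the chitinase-like Chil1 (-2.69 and -3.08). In azurophil-high cells they were followed by Itgb2l (-2.07), the peptidoglycan-binding Pglyrp1 (-1.61) and Cd177 (-1.60). The gene called higher was Anxa1, for annexin A1 (0.67). In immature cells 8 of 27 were lower and 0 higher (7.86% and 11.9% of all genes; median -0.27), led by Orm1 (-2.30) and Chil1 (-1.61), and in mature cells 3 of 26 lower and 1 higher, the NADPH oxidase gene Cybb (0.96), near or under the 10.0% and 11.3% of all genes there. In Il1b-rich cells 1 of 23 was lower, a share near the 4.42% of all genes, and 4 were higher (2.71%). In vehicle against WT, 5, 4, 4, 4 and 2 were called higher and 0, 0, 1, 3 and 5 lower of 26, 28, 27, 26 and 23 tested from azurophil-high to Il1b-rich cells, against 0.803% to 4.83% of all genes higher and 0.891% to 3.86% lower, with Lrg1 higher in each stage (0.86, 0.75, 1.08, 1.44 and 0.85).

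The granules made before them went the other way in cycling cells. Of 12 azurophil granule genes, 8 of the 11 tested were higher with IACS-70654 in cycling cells and 0 lower (median 1.39; 6.73% and 5.1% of all genes), including the genes of neutrophil elastase (Elane, 2.74), cathepsin G (Ctsg, 2.63), myeloperoxidase (Mpo, 2.48) and proteinase 3 (Prtn3, 1.61). In azurophil-high cells, which were chosen by several of these genes, 2 were higher and 1 lower (3.18% and 6.03% of all genes), with Ctsc at 0.85, Elane at 0.75 and Cd63 at -0.91. In immature cells 5 were higher and 2 lower (11.9% and 7.86% of all genes), led by Ms4a3 (0.97). In mature cells 2 were higher, near the 11.3% of all genes, and 4 lower (10.0%), led by Cd63 (-1.13). Cycling cells of the drug group thus held more azurophil and less secondary granule transcripts, and the part of a difference in maturity within the stage was not tested. By the score of each cell, 350 cells of the cycling stage scored highest for azurophil markers and 2451 for cycling ones. Of 12 transcription factor genes of granulocyte development, 11 were tested in each of the next 3 stages. In azurophil-high cells 1 was higher with IACS-70654 and 1 lower (3.18% and 6.03% of all genes). They were Gfi1, a repressor needed for neutrophils (0.64), and Klf5 (-0.81). In cycling cells Gfi1 was the 1 higher (0.91), with 0 lower (6.73% and 5.1% of all genes). In mature cells 2 were higher, Cebpe (0.82) and Runx1 (0.50), and 0 lower (11.3% and 10.0% of all genes), with a list median of -0.37. Cebpe and the genes of CBP and P300, Crebbp and Ep300, were not called in the young stages.

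Among c-Kit+ cells, 2 members were measured above traces in the class of progenitors named neutrophil-committed, and 4 of 9 (Fcnb, Lcn2, Camp and Ngp) passed the filter on low counts. Camp and Ngp were at 0.862 to 4.30 CPM, and Ltf, Olfm4, Mmp8, Mmp9 and Retnlg at 1.56 CPM or less, with 0 Mmp9 UMIs in all 6 libraries, so free RNA of these genes was no higher than this in the c-Kit+ sort. Fcnb was at 33.0 and 29.6 CPM in WT, 54.6 and 53.4 CPM in vehicle, and with IACS-70654 11.7 and 9.37 CPM. The groups did not overlap, and the drug libraries were lowest. Vehicle against WT called 2 of the 4 higher and 0 lower (0.834% and 0.851% of 11990 genes), Fcnb at 0.77 ± 0.11 (edgeR adjusted p = 3.3e-07) and Lcn2 at 1.21 ± 0.17 (adjusted p = 1.5e-07). IACS-70654 against vehicle called 1 lower and 0 higher (3.58% and 3.11%), Fcnb at -2.37 ± 0.092 (edgeR adjusted p = 2.7e-28). Lcn2 was at 12.7 and 10.7 CPM in WT, 27.7 and 27.7 CPM in vehicle, and with IACS-70654 28.1 and 32.4 CPM, where its change was 0.04 ± 0.086. All 4 libraries of tumor-bearing mice lay above both WT libraries for Lcn2.

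Fcnb in these progenitors was held by few cells, 29.2% and 27.8% in vehicle, 18.6% and 17.1% in WT and 8.88% and 7.55% in IACS-70654 without thinning, and at least 0.311% and at most 1.16% of stem and multipotent progenitors had a UMI. In the progenitor clusters numbered 0, 2 and 3 Fcnb was lower with the drug by similar amounts, -2.33 ± 0.14, -2.32 ± 0.26 and -2.30 ± 0.21 (edgeR adjusted p = 3.6e-19, 1.6e-08 and 8e-26), the 1 member called lower in each (2.6%, 1.78% and 1.97% of all genes). Cluster 0 was the largest and held the most Fcnb, 21.7 to 127 CPM over the libraries. Lcn2 was the 1 member called higher in cluster 0 (1.02 ± 0.16, adjusted p = 4.1e-06; 1.66% of genes) and the 1 called lower in cluster 1 (-0.75 ± 0.18, adjusted p = 0.0023; 2.0%), so its change of 0.04 over all progenitors sums clusters that moved in opposite directions. Cluster 5, with 156 cells, scored low for neutrophil-committed markers (z = -0.63 among the clusters) and high for those of stem and multipotent progenitors (z = 1.58), with Angpt1, Mecom and Meis1 among its leading genes. Cluster 1, with 1065 of the 4653 cells, scored lower still for neutrophil-committed markers (z = -1.67) and high for those of monocyte progenitors (z = 1.75), and Irf8, Ms4a6c and Cd34 were among its leading genes. Without cluster 1, an alternative added after the data were seen, Fcnb was at -2.30 ± 0.093 (edgeR adjusted p = 8.03e-33) and Lcn2 at 0.28 ± 0.095 (adjusted p = 0.0211, not called), and the members called in both contrasts were unchanged in number. Of the other granule genes, 5 of 18 were lower and 4 higher with IACS-70654 (3.58% and 3.11% of all genes), led by Cd33 (2.27), Pglyrp1 (-1.59), Anxa1 (1.36) and Lrg1 (-1.24), and of the azurophil genes 3 of 11 were lower (Cd63, Prss57 and Srgn) and 0 higher.

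**Figure D4:**
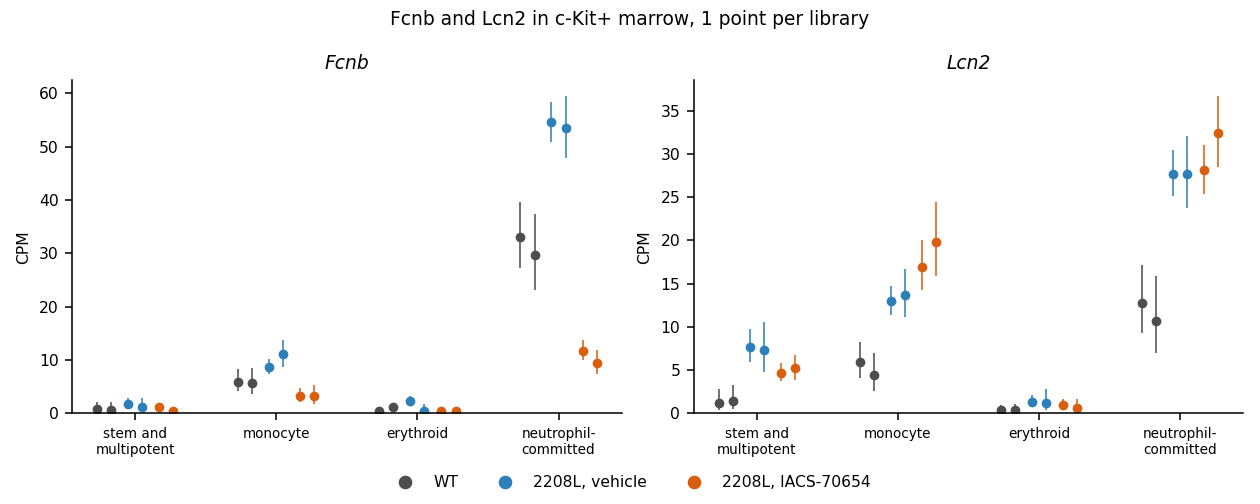
Level (CPM) of Fcnb and Lcn2 in classes of c-Kit+ BM cells, 1 point per library with an exact 95% Poisson interval that covers counting error only. In the class named neutrophil-committed Fcnb is at 54.6 and 53.4 CPM in vehicle and 11.7 and 9.37 CPM in IACS-70654, while Lcn2 is at 27.7 to 32.4 CPM in all 4 tumor-bearing libraries and at 12.7 and 10.7 CPM in WT.

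Tumor neutrophils held few transcripts of the early members, and Lcn2 and Mmp9 were present in each library. There was 1 library per treatment, with 469 (vehicle), 245 (IACS-70654), 554 (anti-PD1) and 308 (combination) cells of a median 1199 to 1341 UMIs, so no test was made and the intervals cover counting error only. Values follow in that order of treatments. The neutrophils formed clusters whose shares differed with IACS-70654: a cluster led by Ltc4s, Nr4a2 and Siglecf held 55.4%, 70.2%, 55.1% and 71.1% of them, and one led by Asprv1, Ifitm6 and Lrg1 35.8%, 22.4%, 36.1% and 23.4%. Mmp9 was at 434, 801, 454 and 817 CPM, the libraries with IACS-70654 being the higher. Its log2 ratio was 0.88 (95% interval 0.64 to 1.13) for IACS-70654 against vehicle and 0.85 (0.63 to 1.07) for the combination against anti-PD1, and the share of cells with a UMI was 35.8% and 51.8%, then 36.3% and 47.7%. Mmp9 was higher with IACS-70654 within the cluster led by Ltc4s (463, 872, 508 and 916 CPM) and within that led by Asprv1 (443, 665, 412 and 601 CPM). Mmp9 in T and NK cells of the same tumors was at 23.6 CPM or less. Lcn2 was at 816, 895, 992 and 655 CPM, with ratios of 0.13 (-0.07 to 0.34) and -0.60 (-0.81 to -0.40). The 2208L tumor cells themselves held 6440 to 8922 CPM of Lcn2, and T and NK cells 111 to 134 CPM.

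Retnlg was at 444, 170, 1193 and 20.0 CPM in tumor neutrophils, lower in each library with IACS-70654 than in its partner without it. Most of it lay in the cluster led by Asprv1, at 1167, 665, 3248 and 56.7 CPM, while the cluster led by Ltc4s held 6.01 to 18.6 CPM, so the pooled values move with the shares of these clusters and with the level within one of them. The log2 ratio was -1.38 (-1.80 to -0.98) for IACS-70654 against vehicle, where 66.5% of the vehicle UMIs came from 3 cells, and 7.46% and 3.67% of cells held a UMI. Ltf was at 84.1, 8.11, 239 and 35.0 CPM and Olfm4 at 54.4, 8.11, 71.3 and 0 CPM. For IACS-70654 against vehicle the ratio of Ltf was -3.37 (-5.70 to -1.75; 3 and 51 UMIs) and that of Olfm4 -2.75 (-5.09 to -1.07; 3 and 33 UMIs). Thus 3 members were past a log2 ratio of 1 downward and 0 upward. The shares were 5.16% and 4.97% of 5351 genes of at least 20 UMIs in both libraries together. Mmp8 was at 23.1, 21.6, 52.5 and 17.5 CPM, with a ratio of -0.09 (-1.55 to 1.26). Camp, Ngp and Fcnb were at 6.60 CPM or less in vehicle and had 0 UMIs with IACS-70654, and no fold is given.

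In the anti-PD1 tumor a few neutrophils held most UMIs of some members. Camp was at 285 CPM and Ngp at 649 CPM there, and all 228 Camp UMIs lay in 3 cells. In all, 4 of 554 cells held at least 5 UMIs of Camp and Ngp, with a median of 4349 UMIs against 1312 over all neutrophils of the library, and the other tumor libraries held 0 such cells. The combination against anti-PD1 had 6 members past a log2 ratio of 1 downward and 0 upward, with those cells kept. The shares were 5.18% and 4.5% of 5890 genes of at least 20 UMIs in both libraries together. Without those cells 3 were past it, among them Ngp, which with 1 and 14 UMIs was under that limit. The share of all genes was not computed there, so the count of 3 is not read as a result about the members. Retnlg remained lower, at -5.90 (-7.12 to -4.91) with and -5.17 without those cells, while Ltf went from -2.77 to -0.87, Mmp8 from -1.59 to -0.87 and Lcn2 from -0.60 to -0.11. Ngp had 1 UMI in the combination library against 519 with anti-PD1, a ratio of -8.02 (-13.3 to -5.54), and against 14 without those cells, -2.84 (-8.25 to -0.13). Camp had 2 UMIs against 228, and against 0 without them. Olfm4 had 57 UMIs with anti-PD1 and 0 with the combination, a log2 ratio of -3.25 or lower at a floor of 3 UMIs per library, and without those cells 29 and 0, a ratio of -2.31 or lower. Against vehicle, Retnlg with anti-PD1 was at a log2 ratio of 1.43 (1.23 to 1.63) with and 0.70 (0.49 to 0.91) without those cells. The ratio went from 6.62 to 1.44 for Ngp, from 1.51 to -0.39 for Ltf, from 1.19 to 0.47 for Mmp8, from 0.39 to -0.55 for Olfm4 and from 0.28 to -0.20 for Lcn2, while Mmp9 was at 0.07 with and 0.04 without them.

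**Figure D5:**
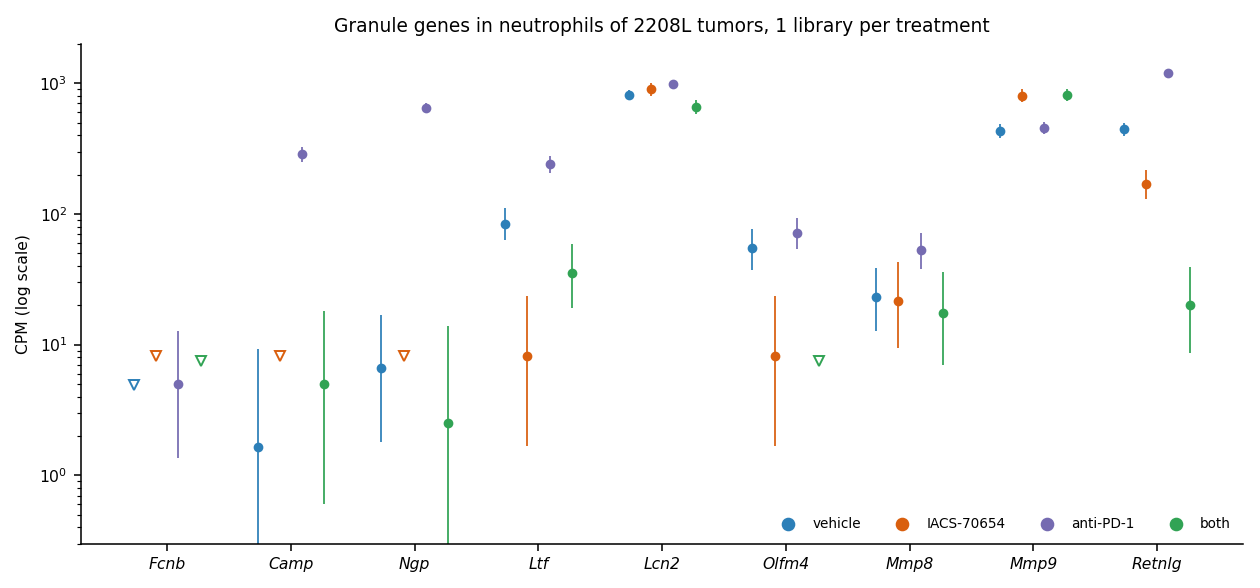
Level (CPM, log scale) of each gene in neutrophils of the 4 tumor libraries, 1 point per library with an exact 95% Poisson interval, and open triangles at 3 UMIs where a library had 0. Mmp9 is at 801 and 817 CPM in the libraries with IACS-70654 and at 434 and 454 CPM without it, and Retnlg is at 170 and 20.0 CPM against 444 and 1193 CPM.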

How the data were processed

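The deposited files hold raw UMI counts per gene and cell, which the authors made with Cell Ranger multi (7.1.0 for tumors and 7.2.0 for BM in the file headers; mm10 in the submitters' processing notes), with no normalization. Cells with over 200 and under 6000 genes and at most 10% mitochondrial UMIs were kept. Clusters came from 2000 variable genes, 30 principal components, 20 neighbors and Leiden (leidenalg 0.10.2, resolution 1, 0.8 for marrow neutrophils and 0.4 for progenitors and tumor neutrophils) in Python 3.11.15, and were named by marker scores. Only the second clustering, of marrow neutrophils and of progenitors, was corrected over libraries, by a Python implementation of the Harmony algorithm. The first clustering of each sort and the clusters of tumor neutrophils were not. UMIs were summed per library and stage with at least 20 cells and tested in R 4.3.3 by edgeR 4.0.16 (TMM after filterByExpr, then the quasi-likelihood F test over the 6 libraries of a sort, Benjamini-Hochberg over all genes), with DESeq2 1.42.0 as an alternative. The contrasts share the vehicle libraries. On sums drawn with 200 genes changed by a log2 of 1, edgeR recovered 91%, 87.5% and 89% of them in azurophil-high, immature and mature cells. DESeq2 recovered 64%, 68.5% and 59.5%, so a missing call by DESeq2 says less. Only genes with an expected count over 20 were changed, with the same dispersion for all genes, so low-count members are not covered. Scrublet (scanpy 1.11.5) marked under 0.5% of cells in most libraries and did not work, so removing the top 5% of scores was added. The text names all 9 members and, of each other list, called genes by size of change, at most 6. The members and lists were chosen with earlier results of these data known.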

Additional observations from a re-analysis of the deposited data

Results flagged for a closer look

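The effect on 4 genes differed between mature and immature neutrophils of CD45+ BM, by the edgeR test of that difference over all genes. With IACS-70654 against vehicle the difference (mature minus immature, log2) was 0.94 for Ngp, from -0.33 in immature to 0.61 in mature cells. The change of Ngp in mature cells lost its call without vehicle replicate 1 (0.44) and with stages from the score of each cell (0.25), and it was -0.30 with clusters made without integration. The difference was 0.57 for Ltf, from -0.21 to 0.36, with levels in mature cells in or just above the CPM range of B cells. For Fcnb it was -0.79, from 0.24 to -0.53, on 7.5 to 10.6 CPM in mature cells, a background level. The Ltf difference was 0.33, under the limit, without vehicle replicate 1, and the Fcnb difference was lost without IACS-70654 replicate 1 (-0.56) or vehicle replicate 2 (-0.72). With vehicle against WT it was -0.75 for Retnlg, from 0.64 in immature cells to -0.11 in mature cells.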

How the results depend on the processing

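Alternatives were DESeq2, totals without TMM, totals and TMM without the members, no filter on low counts, cells of at least 1000 UMIs, doublets removed, stages from the score of each cell and each library left out, with clusters made without integration and removal of the top 5% of doublet scores added after the data were seen, as was leaving out 1 cluster of c-Kit+ progenitors. Of the 17 calls for IACS-70654 against vehicle in the 5 stages, 7 were kept under each of them: Camp, Fcnb and Ngp in azurophil-high cells and Fcnb, Ltf, Mmp9 and Ngp in cycling cells. Of the 6 calls for vehicle against WT, 3 were kept: Lcn2 in azurophil-high, Mmp9 in cycling and Olfm4 in mature cells. Both Mmp9 calls rest on sums that moved mostly with 1 cycling cluster, at levels in the range of B cells. Leaving out 1 library gave 6 to 8 calls for vehicle against WT, 16 to 18 for IACS-70654 against vehicle, 1 to 2 and 2 to 3 for the difference between mature and immature cells, and 1 to 2 in c-Kit+ progenitors with IACS-70654. Stages from the score of each cell gave 10 calls for vehicle against WT, a count without the share of all genes beside it. The c-Kit+ progenitors with IACS-70654 gave 2 calls with no filter, all neutrophils with IACS-70654 gave 3 calls with totals without TMM, and the combination against anti-PD1 in tumors had 3 members past the fold without the cells of at least 5 Camp and Ngp UMIs. The share of all genes past the fold without those cells was not computed. The immature stage held the highest share of cells with a UMI for 1 member without thinning. With clusters made without integration, which followed the groups, 4 changes with IACS-70654 reversed: Lcn2 (0.066) and Olfm4 (0.18) in azurophil-high, Retnlg in immature (0.47) and Ngp in mature cells (-0.30). The cause was not tested. DESeq2 lost Olfm4 in azurophil-high cells in both contrasts.

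A fit with the replicate block left the counts at 6 and 17 in the stages, 2 and 1 in c-Kit+ progenitors and 0 and 7 in all neutrophils. Deviations of same-numbered libraries from their group means had correlations of -0.41 to 0.25 over genes, both ends in all neutrophils together. Within the stages and progenitors they were -0.083 to 0.050. Drawn from 2 libraries per group, such correlations cannot settle whether the numbers pair the samples. With 2 libraries per group an exact permutation test could not go below a p of 0.333. Low counts, or levels in the range of B cells, limit Olfm4, Ltf, Mmp8, Mmp9, Lcn2 and Retnlg in azurophil-high cells, Camp and Ngp of the drug libraries there, Mmp9 in cycling cells and Camp, Ltf and Fcnb in mature cells.

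Counts over all genes moved as well. DESeq2 made fewer calls than edgeR with IACS-70654 against vehicle, with 75 higher and 343 lower against 318 and 602 in azurophil-high cells, 290 and 352 against 717 and 543 in cycling cells, 542 and 688 against 1352 and 893 in immature cells, 448 and 746 against 1167 and 1032 in mature cells, 38 and 109 against 162 and 264 in Il1b-rich cells and 133 and 222 against 373 and 429 in c-Kit+ progenitors. For vehicle against WT it made 67 and 31 against 123 and 89, 118 and 37 against 214 and 115, 329 and 167 against 502 and 425, 306 and 277 against 498 and 398, and 16 and 68 against 48 and 118 in the 5 stages, and 57 and 46 against 100 and 102 in the progenitors. Scaled to totals without TMM, IACS-70654 against vehicle gave 611 higher and 423 lower in azurophil-high, 1793 and 264 in cycling, 2730 and 418 in immature, 2097 and 532 in mature cells, 4098 and 642 in all neutrophils (2071 and 1599 with TMM) and 509 and 361 in the progenitors. For vehicle against WT the split was 124 and 357 in cycling, 233 and 1543 in immature, 386 and 531 in mature, 79 and 89 in Il1b-rich cells and 427 and 1915 in all neutrophils (732 and 644 with TMM), and for the difference between mature and immature cells 331 and 65 (135 and 210 with TMM).
In azurophil-high cells the calls over all genes fell to 145 higher and 366 lower without vehicle replicate 2, and to 189 and 373 with clusters made without integration. In Il1b-rich cells they were 441 and 599 with stages from the score of each cell and 326 and 404 without integration, and 292 and 269 for vehicle against WT with stages from the score.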
